A study of Mus musculus with 49 samples.

Results

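The 87 genes described here encode subunits and assembly factors of the oxidative phosphorylation system. They are all genes of the read counts table whose symbol starts with Nduf, Uqcr, Sdh followed by a to d, Cox4, Cox5, Cox6, Cox7, Cox8 or Atp5 and that had 10 or more counts in at least 2 libraries. The table holds 24062 genes, of which 94 have a matching symbol. Classed by symbol, 36 of the 87 belong to complex I, 4 to complex II, 8 to complex III, 13 to complex IV and 15 to ATP synthase (complex V). The other 11 are the assembly factors Ndufaf1 to Ndufaf7, Sdhaf1 and Sdhaf2 and the genes Atp5s and Atp5sl. All 87 passed the filter on low counts, and all had 10 or more counts in all 25 libraries.

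Oxidative phosphorylation is the last stage of fuel oxidation in the inner mitochondrial membrane. Complexes I and II take electrons from NADH and succinate, complex III passes them to cytochrome c and complex IV to oxygen, and complexes I, III and IV pump protons. ATP synthase uses the proton gradient to make ATP. Its F1 part holds the catalytic subunits, and its membrane part includes a ring of subunit c. In the intestinal crypt, stem cells are known for high mitochondrial activity and Paneth cells for glycolysis. Complexes I, III, IV and V also contain subunits encoded in mitochondrial DNA, and 0 of 13 such genes are in the analysed table, so the values below cover nuclear genes.

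RNA was sequenced from crypt epithelium of the proximal small intestine of adult mice of mixed B6;129 background. The 25 libraries fall into 12 groups, of which 11 have 2 or 3 libraries. Stem cells were Lgr5-GFP-high cells of Lgr5EGFP-IRES-CRE-ERT2 mice (3 libraries) and Lgr5-GFP+ cells of Lgr5EGFP-DTR mice (2 libraries), which carry a diphtheria toxin receptor. Bmi1-GFP+ cells came from Bmi-1GFP/+ mice that were untreated (3 libraries) or had been given 10 Gy of whole-body radiation and were harvested 36 h later (1 library). Enterocyte progenitors (EP) were unsorted crypts of Atoh1 F/F; Villin-CRE mice that had received 1 mg tamoxifen on 5 days and were harvested after 3 weeks (2 libraries). Villin-CRE acts throughout the intestinal epithelium, and loss of Atoh1 prevents secretory cells from forming. Secretory progenitors (SP) were unsorted crypts of Atoh1 F/F mice, labelled without Cre, harvested 38 h after the first of 2 doses of 48 mg/kg of the Notch inhibitor DBZ (2 libraries). A further SP group was unsorted crypts of Rbpj F/F; Villin-CRE mice given 2 mg tamoxifen doses over 2 days and harvested on day 3 (2 libraries). Mice labelled wild type gave CD24-high UEA-lectin-negative enteroendocrine cells (EE), CD24-high UEA-lectin-high Paneth cells and CD274+CD69+ cells, with 2 libraries each. CD274+CD69+ cells were also taken after diphtheria toxin at 50 µg/kg (2 libraries), with no toxin receptor allele named in the labels. Goblet cells (2 libraries) came from mice labelled wild type and given 48 mg/kg DBZ, with a second dose at 12 h. They were harvested 115 h after DBZ, and their label repeats the CD69 and CD274 staining protocol. All mice are labelled adult with no further age, and the labels do not state which libraries share a mouse, so p-values measure the spread between libraries.

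Promoters are shown for the COX7A paralogs, for a pair of members low in goblet cells (Ndufaf1 and Ndufb2) and for a pair with an NRF1 match (Atp5g2 and Ndufaf4). Each sequence is the 200 bases before the RefSeq transcription start (GRCm38.p6), written 5' to 3' on the strand of the gene, and capitals mark a match to 1 of 3 motifs. The motifs were the NRF1 palindrome (GCGCA followed directly by its reverse complement), CCGGAAG (ETS factors, including GABP) and AAGATGGCG (YY1), searched on both strands. These factors are known regulators of nuclear genes for mitochondrial proteins. The COX7A family comes first, because its 3 members had different patterns. Cox7a1 (chr7:30183971-30184170, plus strand), Cox7a2 (chr9:79759854-79760053, minus strand) and Cox7a2l (chr17:83514334-83514533, minus strand) held no match in these windows.
Cox7a1: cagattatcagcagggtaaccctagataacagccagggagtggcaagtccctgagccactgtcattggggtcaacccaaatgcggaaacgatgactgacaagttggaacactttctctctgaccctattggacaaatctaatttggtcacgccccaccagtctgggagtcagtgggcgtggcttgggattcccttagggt
Cox7a2: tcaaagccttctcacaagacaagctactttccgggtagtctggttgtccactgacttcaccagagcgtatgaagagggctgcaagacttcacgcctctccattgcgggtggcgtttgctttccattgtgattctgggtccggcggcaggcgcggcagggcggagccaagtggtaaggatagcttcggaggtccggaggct
Cox7a2l: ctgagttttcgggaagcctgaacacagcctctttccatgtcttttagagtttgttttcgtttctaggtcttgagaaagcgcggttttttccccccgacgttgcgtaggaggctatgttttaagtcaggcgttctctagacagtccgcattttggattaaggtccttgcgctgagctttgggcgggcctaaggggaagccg
The next sequences belong to Ndufaf1 (chr2:119662835-119663034, minus strand) and Ndufb2 (chr6:39592365-39592564, plus strand), which were among the members with the lowest goblet levels relative to the other groups.
Ndufaf1: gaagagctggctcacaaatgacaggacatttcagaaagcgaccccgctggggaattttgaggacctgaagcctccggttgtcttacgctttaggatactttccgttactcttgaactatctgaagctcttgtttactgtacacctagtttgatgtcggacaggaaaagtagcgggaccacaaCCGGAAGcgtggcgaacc
Ndufb2: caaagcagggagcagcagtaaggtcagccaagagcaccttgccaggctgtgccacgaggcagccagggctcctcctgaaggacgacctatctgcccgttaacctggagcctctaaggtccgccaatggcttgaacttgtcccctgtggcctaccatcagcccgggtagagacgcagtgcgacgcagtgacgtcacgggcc
The last belong to Atp5g2 (chr15:102671048-102671247, minus strand), a paralog of subunit c, and to the complex I assembly factor Ndufaf4 (chr4:24897883-24898082, plus strand). Each holds the NRF1 palindrome.
Atp5g2: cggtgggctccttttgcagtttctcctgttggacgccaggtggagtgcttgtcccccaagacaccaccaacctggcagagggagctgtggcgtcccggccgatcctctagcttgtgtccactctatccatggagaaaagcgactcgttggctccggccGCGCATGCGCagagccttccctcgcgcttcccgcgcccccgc
Ndufaf4: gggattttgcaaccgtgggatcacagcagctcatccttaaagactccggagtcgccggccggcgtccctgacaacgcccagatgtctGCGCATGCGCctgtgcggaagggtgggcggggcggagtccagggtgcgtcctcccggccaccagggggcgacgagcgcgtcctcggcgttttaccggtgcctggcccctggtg

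In the RefSeq promoter table, which runs from 250 bases before to 50 bases after each start, 75 of the 87 members had 81 entries. The NRF1 palindrome was in 7 of these 81 (8.64%) and in 319 of all 32851 promoters (0.971%). CCGGAAG was in 19 of the member promoters (23.5%) and in 8.86% of all. AAGATGGCG was in 9 (11.1%) and in 1.40% of all. These are letter matches and not measured binding.

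Library totals ranged from 11179085 to 27371108 counts. Values below are library-size-scaled counts (CPM) normalised by TMM, a scaling by 1 factor per library that assumes most genes do not change. They are not corrected for gene length, so levels are compared between groups and not between genes. Several libraries stood apart. The 3 Lgr5-GFP-Cre libraries differed in summed member level, with 51586 CPM in replicate 1, 27040 in replicate 2 and 38276 in replicate 3. Summed enterocyte markers (9 genes, among them Fabp1 and Alpi) were 98475 to 106831 CPM in the goblet libraries and 111348 in the irradiated library, against at most 18661 in any other library. Summed Paneth markers (6 genes) were 164672 to 226516 CPM in the Lgr5-GFP-DTR libraries and 40104 to 49352 in the Lgr5-GFP-Cre libraries. Goblet markers (6 genes) reached 57713 to 95674 CPM in the goblet libraries, above all others. Enteroendocrine markers (7 genes) were highest in EE, at 13645 to 28358 CPM, and were 7635 to 14089 in Bmi1-GFP. Paneth markers were 53071 to 63339 CPM in EE, against 203953 to 343149 in Paneth cells. In bulk RNA, fewer cells of a type and less RNA per cell cannot be told apart. Both Rbpj libraries and replicate 1 of the CD274+CD69+ cells were made with a TruSeq kit, and all others with SMART-Seq. Within the CD274+CD69+ pair, the TruSeq library was higher in 83 of 87 members, with a median log2 difference of 0.13 and 0 members beyond 1. Over all 14837 genes tested it was higher for 8292 and lower for 6186, with a median of 0.02 and 657 beyond 1.

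Across the 11 replicated groups, goblet cells had the lowest mean level for 58 of the 87 members, and Rbpj-deleted crypts for 20. Over all 14837 genes tested, goblet cells were lowest for 31.0%. Lgr5-GFP-DTR cells were highest for 48 members, EE for 20, Lgr5-GFP-Cre for 9 and EP for 5. No share over all genes stands beside these counts or the Rbpj count, so they only describe the members. The summed member level was 16391 and 16847 CPM in the goblet libraries, 21313 and 20252 after Rbpj deletion, and 23112 and 30641 in Paneth cells. In the middle of the order lay CD274+CD69+ cells, 31123 and 28784 CPM, and after toxin 28356 and 30739. Untreated Bmi1-GFP cells had 28657, 28069 and 34200 CPM, SP after DBZ 29960 and 31103, and EP 30856 and 34248. Most of these middle groups overlap one another in range. EE had 37350 and 33055 CPM and Lgr5-GFP-DTR 44368 and 38911. With TMM, the goblet libraries were below all others and the Rbpj libraries next lowest, with no overlap with other groups. The range of Lgr5-GFP-Cre spanned those of most groups. Members account for 1.28% of all counts in goblet cells and 3.96% in Lgr5-GFP-Cre cells on average. By this share the goblet libraries were again lowest, but the Rbpj libraries (2.41% and 2.32%) lay between the Paneth libraries (1.62% and 2.68%). Lgr5-GFP-DTR, with 3.26% on average, was then below Lgr5-GFP-Cre, EP, Bmi1-GFP, EE and SP after DBZ. The order of groups thus depends on scaling.

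**Figure D1:**
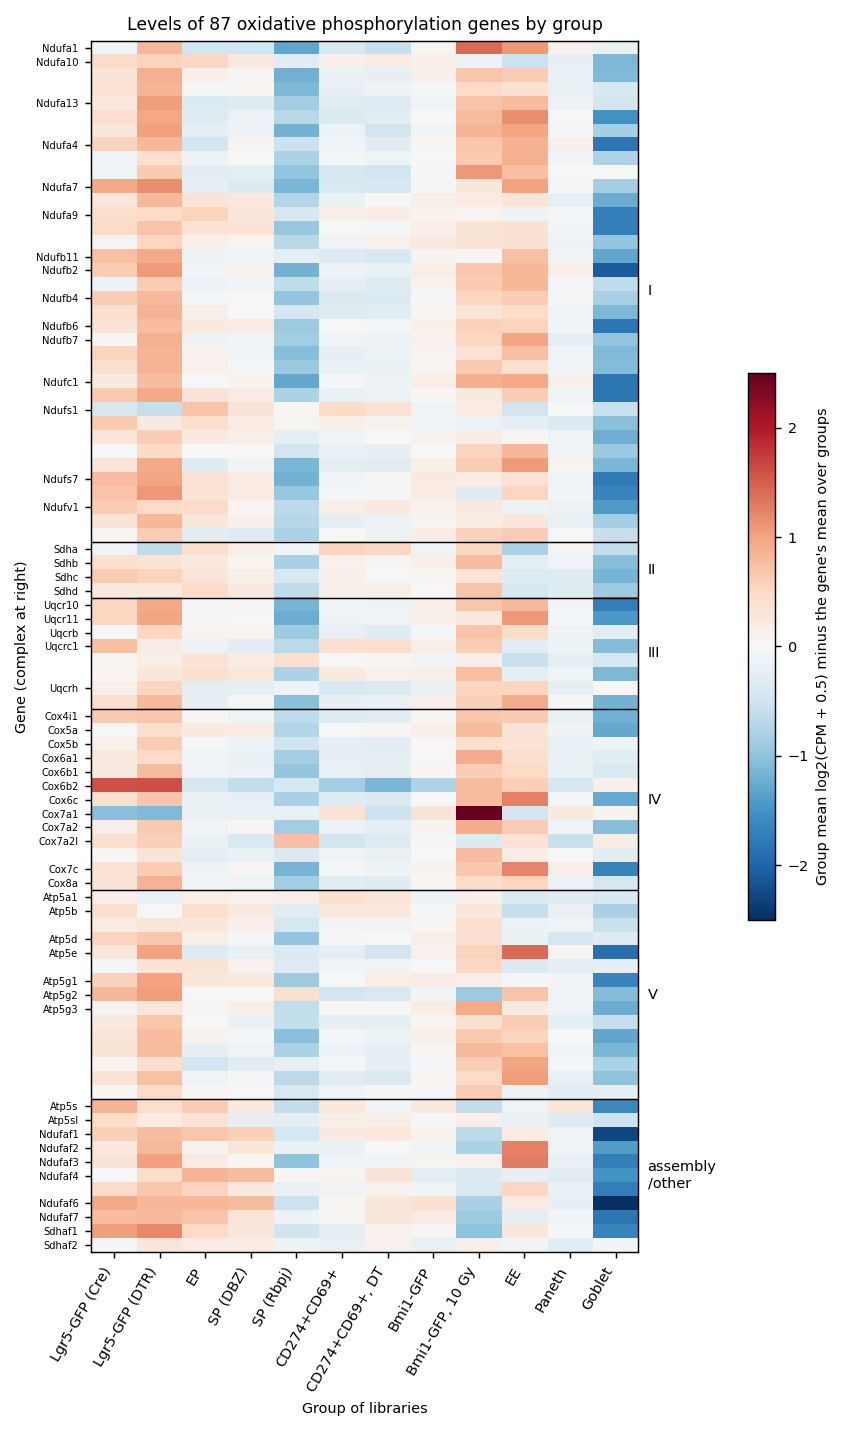
Heat map of the 87 genes (rows, ordered by complex, with genes named in the text labelled) in the 12 groups (columns). Colour gives the group mean of log2(CPM + 0.5) minus the gene's mean over groups. The goblet column is lowest for 58 genes among the 11 replicated groups, and Cox7a1 stands out in the irradiated library, with 217 CPM.

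**Figure D2:**
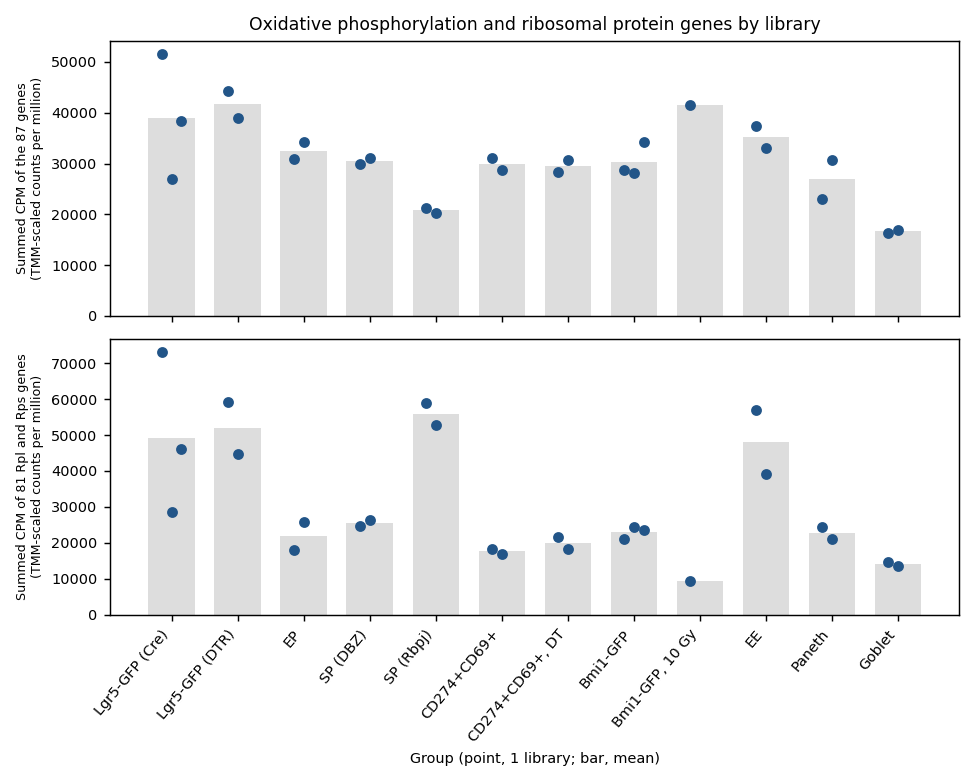
Summed TMM-scaled CPM of the 87 genes (top) and of 81 cytosolic ribosomal protein genes (bottom). Each point is 1 library and each bar a group mean, on axes that start at 0. The 2 goblet libraries are lowest in the upper panel, at 16391 and 16847 CPM, and the 3 Lgr5-GFP-Cre libraries spread from 27040 to 51586.

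The median member varied 3.85-fold between its lowest and its highest group, against 5.87-fold for the median of all genes tested. Assembly factors and related genes varied most, by a median of 6.51-fold, and Ndufaf6 varied 15.3-fold. Mean levels in this class were low, from 17.5 CPM (Atp5s) to 62.6 (Ndufaf4). Ndufaf6 was at 2.03 CPM in goblet cells, with at least 24 counts in each library, so its range rests on a low value. Complex II varied by a median of 2.68-fold. Correlation with the mean profile of all members over the 11 groups was high for most members, with a median r of 0.87, and was negative for 3. These were Cox7a1 at -0.57, Sdha at -0.07 and Ndufs1 at -0.07, and the ATP synthase alpha subunit gene Atp5a1 was at 0.07. The 11 group means share libraries between genes, so r is a description. The 3 genes outside the set with the most similar profile were Etfb (r = 0.994), which encodes a subunit of the electron transfer flavoprotein, Anapc11 (0.992), a subunit of the anaphase-promoting complex, and Psmb5 (0.989), a proteasome subunit.

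The spread within Lgr5-GFP-Cre touched the complexes unequally. Replicate 1 exceeded replicate 2 by more than 1 log2 unit in 57 of 87 members, against 7.35% of all genes tested, where the median difference was -0.02. The median difference was 1.5 for the 29 accessory subunits of complex I and 1.46 for complex IV. It was 0.74 for the 7 core subunits of complex I, 0.58 for the 5 F1 subunits and 0.41 for complex II. Cox7a2 differed by 2.28 log2 units and Sdha by -0.48. Ribosomal protein genes moved with these members: their summed level was 73016 CPM in replicate 1, 28553 in replicate 2 and 46093 in replicate 3, and 66 of 77 tested differed by more than 1. Their part in the results against this group was not tested. The counts of members lower than in Lgr5-GFP-Cre are therefore also given without replicate 1 and without replicate 2 for progenitors, Bmi1-GFP, EE and Paneth cells. Those counts come without the share of all genes called in the same fit.

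Several isoforms were at or near 0 in these epithelial libraries. Cox4i2 reached at most 1 count in any library, Cox8b 1 and Ndufa4l2 8. Cox7b2 and Cox8c, whose known expression is in testis, were listed at 0. Ndufs5, a complex I subunit made in most tissues, was also listed at 0. Since annotation and counting method are unstated in the labels, its 0 is not read as absence of expression. Just below the threshold lay Cox6a2, the heart and muscle isoform of subunit 6a, with at most 11 counts, in 1 library. The lowest member inside it was Cox6b2, the testis isoform of subunit 6b, with at least 16 counts in each library. Cox6b2 had 13.8, 4.63 and 7.86 CPM in Lgr5-GFP-Cre and 9.77 and 6.78 in Lgr5-GFP-DTR, against at most 4.57 in any other library. Its ubiquitous paralog Cox6b1 had 379 to 1032 CPM in Lgr5-GFP-Cre.

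The Cox7a paralogs differed in pattern. Cox7a1, the heart and muscle isoform of subunit 7a, had 20.5, 11.8 and 18.4 CPM in Lgr5-GFP-Cre, 17.0 and 14.7 in Lgr5-GFP-DTR, 43.5, 29.1 and 62.9 in Bmi1-GFP and 26.5 and 63.6 in Paneth cells. Both stem cell groups lay below the Bmi1-GFP range. The other group means were also above those of the stem cells. They were 44.7 CPM in CD274+CD69+ cells, 36.6 in goblet cells, 30.9 after Rbpj deletion, 30.8 in EP and 24.9 in EE. SP after DBZ had 34.3 ± 22.9 and CD274+CD69+ cells after toxin 24.8 ± 8.86 (SD, n = 2 each). Cox7a2, the ubiquitous isoform, had another pattern: it was 143 and 163 CPM in goblet cells and 776, 159 and 360.4 in Lgr5-GFP-Cre, so that these ranges overlapped. Cox7a2l, which encodes a factor for assembly of respiratory supercomplexes, had 219.8 and 250.4 CPM after Rbpj deletion, 187 and 136 in goblet cells and 78.3 and 114 in Paneth cells.

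Subunit c of ATP synthase is encoded by Atp5g1, Atp5g2 and Atp5g3, which yield the same mature protein. Atp5g1 was 158 and 190 CPM in goblet cells and 327 and 265 after Rbpj deletion, and 447 or more in every other library. Atp5g2 was 89.0 and 84.5 CPM in goblet cells and 97.6 in the irradiated library, and 346 and 262 in EE. Atp5g3 was 442 and 454 CPM in goblet cells and 2026 in the irradiated library. The irradiated library was the highest of all 25 for Atp5g3, and below all but the goblet libraries for Atp5g2.

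**Figure D3:**
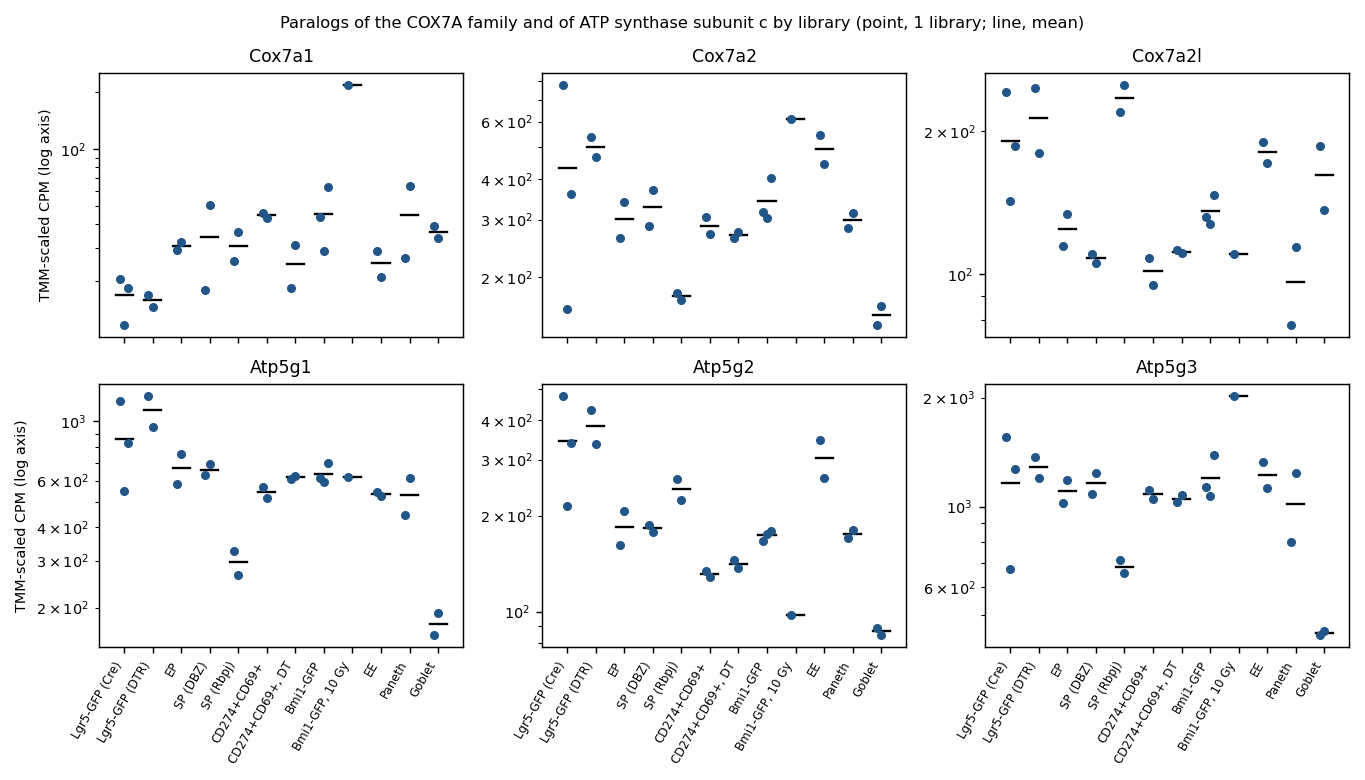
TMM-scaled CPM, on log axes, of 3 COX7A genes (top) and 3 genes of ATP synthase subunit c (bottom). Each point is 1 library and each line a group mean. Cox7a1 is lowest in the stem cell groups and reaches 217 CPM in the irradiated library, and the 3 Atp5g genes are lowest in goblet cells.

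Libraries labelled goblet cells were compared with Paneth cells. The goblet libraries held 57713 to 95674 CPM of goblet markers, and also 98475 to 106831 CPM of enterocyte markers. Enterocyte markers were 5404 to 12337 CPM in Paneth cells, and their part in the member values was not tested. By their labels the goblet mice had received DBZ and the Paneth mice had not, so DBZ and cell type cannot be told apart. Of the 87 members, 57 were lower in goblet cells (30.8% of all genes tested were lower) and 1 was higher (23.0% of all). The median member log2 fold change was -0.96, against -0.17 for all genes. Calls rest on edgeR's quasi-likelihood test at a Benjamini-Hochberg adjusted p under 0.05 over all genes tested. By complex, 28 of 36 members were lower in complex I, 4 of 4 in complex II, 5 of 8 in complex III, 4 of 13 in complex IV and 7 of 15 in ATP synthase. Among the assembly factors and related genes, 9 of 11 were lower, with a median of -1.64. All 7 core subunits of complex I were lower, with a median of -1.13.

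Ndufb2, an accessory subunit of the membrane arm of complex I, was 21.2 and 22.2 CPM in goblet cells and 99.0 and 111 in Paneth cells. The groups did not overlap, and the log2 difference was -2.27 ± 0.39 (SE, edgeR adjusted p = 8.34e-05). Ndufaf1, a complex I assembly factor, was 5.05 and 6.63 CPM in goblet cells and 25.8 and 30.3 in Paneth cells, with a log2 difference of -2.27 ± 0.23 (edgeR adjusted p = 2.84e-07). Ndufa4, first described in complex I and now counted with complex IV, is classed here by its symbol with complex I. It fell by 1.94 log2 units, from 432 ± 95.1 (SD, n = 2) in Paneth cells to 113 ± 23.7 CPM. Ndufc1, another accessory subunit, differed by -1.94 and Atp5e, the epsilon subunit of F1, by -1.88. Cox7a2l was the member that was higher, by 0.75 ± 0.24 (edgeR adjusted p = 0.0120), a call lost without Paneth replicate 1 or goblet replicate 1 (adjusted p = 0.152 in each case).

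Complex IV, classed by symbol and so with Cox7a2l but without Ndufa4, stood closest to level. Its median log2 difference was -0.31, and Cox7c (-1.82), Cox6c (-1.25), Cox5a (-1.19) and Cox4i1 (-1.03) were lower. Cox6a1 was 496 and 559 CPM in goblet cells and 482 and 669 in Paneth cells, and Cox5b and Cox8a differed by 0.05 and -0.31, none of them called. These complex IV and complex III members were chosen after their values were seen. In complex III, Uqcr10 (-1.67) and Uqcr11 (-1.43) were lower while Uqcrh (0.19) and Uqcrb (-0.18) were not called. Within F1, Atp5b, the catalytic beta subunit, differed by -0.63 ± 0.20 (edgeR adjusted p = 0.0106), and Atp5a1 at -0.10 was not called.

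Against CD274+CD69+ cells, 56 members were lower in goblet cells (29.5% of all genes were lower) and 2 were higher (21.8% of all), with a median of -0.94 against -0.10 for all genes. Lower calls numbered 27 of 36 in complex I, 4 of 4 in complex II, 5 of 8 in complex III, 3 of 13 in complex IV, 7 of 15 in ATP synthase and 10 of 11 among the assembly factors and related genes. The complex IV median was -0.19. Both goblet comparisons use the same goblet libraries. In this comparison too, only the goblet mice had received DBZ, so DBZ and cell type cannot be told apart.

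Uqcrc1, a core subunit of complex III, was 445 and 451 CPM in goblet cells and 1326 and 1176 in CD274+CD69+ cells. These ranges were far apart, and the log2 difference was -1.48 ± 0.20 (edgeR adjusted p = 5.49e-06). All 4 subunits of succinate dehydrogenase were lower: Sdha was 474 and 523 CPM in goblet cells against 1130 and 1114, and its log2 difference was -1.17. For Sdhb, Sdhc and Sdhd it was -1.18, -1.30 and -1.05. Ndufaf1 (-2.57 ± 0.23), Ndufb2 (-1.99), Ndufaf7 (-1.92), a methyltransferase needed for complex I assembly, Ndufa9 (-1.88) and Ndufb6 (-1.84) had the largest falls among named members. Higher were Cox6b2 (1.34), at 2.65 against 1.04 CPM, and Cox7a2l (0.67 ± 0.23). The call for Cox7a2l was lost without either CD274+CD69+ library or without goblet replicate 1 (edgeR adjusted p = 0.0579 to 0.237).

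Scaling by DESeq2's size factors moved the median of all genes by 0.17 for goblet against Paneth cells and by 0.25 for goblet against CD274+CD69+ cells. Relative to that median, members were at -0.79 with TMM and -0.75 with size factors in the first comparison, and at -0.85 and -0.82 in the second. In the second, 42.5% of called genes were higher with TMM and 54.1% with size factors, and lower members numbered 56 and 46. Enterocyte marker sums were 98475 to 106831 CPM in the goblet libraries, 5404 to 12337 in Paneth cells and 14091 to 14142 in CD274+CD69+ cells, and the part of these genes in the member values was not tested. Goblet against Paneth cells, lower members numbered 38 without Paneth replicate 2.

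**Figure D4:**
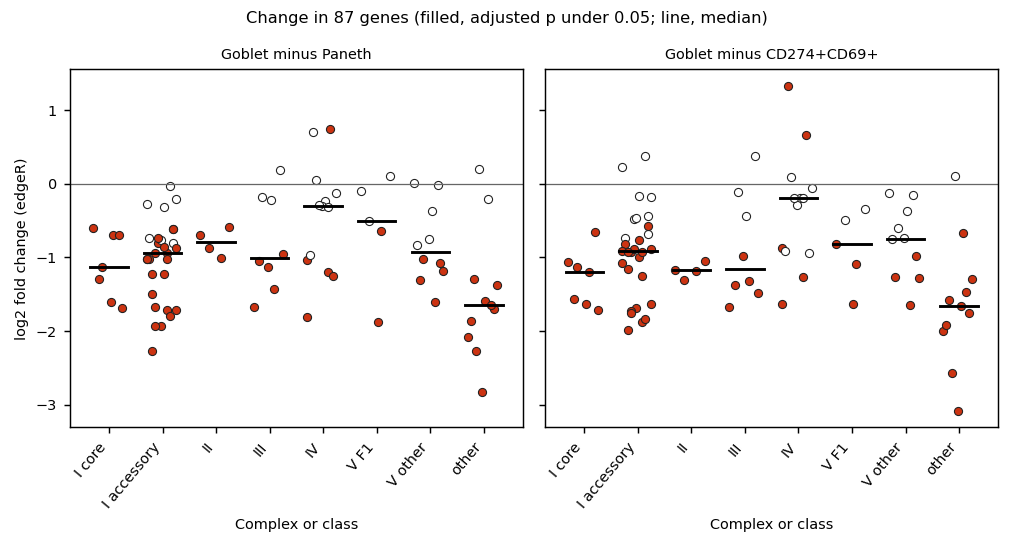
Fitted log2 fold change of each of the 87 genes in goblet cells against Paneth cells (left) and CD274+CD69+ cells (right), by class. Filled points passed the edgeR test at an adjusted p under 0.05 and lines are class medians. Complex IV medians lie at -0.31 and -0.19, and those of the assembly factors and related genes at -1.64 and -1.66.

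Genes around the respiratory chain were read from the same fits. Of all genes tested, 30.8% were lower and 23.0% higher in goblet than in Paneth cells, and 29.5% and 21.8% against CD274+CD69+ cells. The 77 tested genes of the mitochondrial ribosome, which translates the subunits encoded in mitochondrial DNA, were lower in 65 cases against Paneth cells and in 66 against CD274+CD69+ cells, and higher in 0 cases in either. Mrpl28 was 22.6 ± 0.767 CPM (SD, n = 2) in goblet cells and 114 ± 1.67 in Paneth cells. Of 10 genes of pyruvate entry into mitochondria, 7 and 8 were lower and 0 higher. Of 13 citric acid cycle genes, 7 were lower in each comparison, and 4 and 3 were higher, near the shares of all genes. Among the higher was citrate synthase Cs against Paneth cells (log2 2.12 ± 0.18, edgeR adjusted p = 6.24e-08). Glycolysis genes had more higher than lower calls, with 11 of 15 higher and 1 lower against Paneth cells. Against CD274+CD69+ cells, 7 were higher and 2 lower. Gapdh was 2520 ± 507 CPM in goblet and 537 ± 133 in Paneth cells. Cyc1, the cytochrome c1 subunit of complex III that the symbol rule does not catch, was lower in both comparisons (-0.87 and -1.55), and Cycs, the mobile electron carrier cytochrome c, was higher against Paneth cells (1.02 ± 0.34, edgeR adjusted p = 0.0165).

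The EE comparison with Lgr5-GFP-Cre cells had calls in both directions. EE and Paneth cells were released with Dispase and stem cells with TrypLE, so enzyme and cell type cannot be told apart. Of the 87, 9 were higher (25.5% of all genes were higher) and 20 lower (20.4% of all), a lower share near the background. The member median was -0.04 against 0.04 for all genes. All 4 subunits of complex II were lower, with a median of -0.71. Of the 29 accessory subunits of complex I, 6 were higher and 2 lower, and of the 7 core subunits 0 were higher and 2 lower. Of the 5 F1 subunits, 3 were lower and 1 higher. The member median was 0.32 without Lgr5-GFP-Cre replicate 1, with 26 higher and 16 lower, and -0.27 without replicate 2, with 5 higher and 26 lower. Without EE replicate 1, 0 were higher and 13 lower, and without EE replicate 2, 7 were higher and 12 lower. A model of these 2 groups alone gave 0 higher and 13 lower. Differences between complexes were not tested.

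Atp5b was 1897 and 2343 CPM in EE and 4560, 4149 and 4112 in Lgr5-GFP-Cre. The ranges did not overlap, and the log2 difference was -1.01 ± 0.18 (edgeR adjusted p = 0.000266). Sdhc, a membrane anchor of succinate dehydrogenase, was 281 and 233 CPM in EE and 593, 416 and 513 in Lgr5-GFP-Cre, a log2 difference of -0.98 ± 0.19 (edgeR adjusted p = 0.000416). Sdha, the flavoprotein, was 414 and 469 CPM in EE and 593, 830 and 748 in stem cells, again without overlap (-0.71). Uqcrc1 (-1.03), Ndufa10 (-1.0), an accessory subunit of complex I, and Ndufaf7 (-1.0) were lower as well. The calls for Atp5b, Sdhc, Uqcrc1, Ndufa10 and Ndufaf7 held under each alternative fit that was run. Among the higher members, Ndufa1 (0.99), Atp5e (0.98), Ndufaf2 (0.91), Ndufaf3 (0.90) and Ndufb7 (0.86) lost their call without EE replicate 1, and the call of Atp5e was also lost without Lgr5-GFP-Cre replicate 2 or 3. Ribosomal protein sums, 56940 and 39158 CPM in EE, were also at the upper end of the series. The 4 tuft markers summed to 602 to 3329 CPM in EE and 13.4 to 22.3 in Lgr5-GFP-Cre, and the 7 immune markers to 299 to 463 and 24.5 to 41.8. The part of these genes in the member values was not tested.

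Of the citric acid cycle genes, 9 of 13 were lower in EE than in Lgr5-GFP-Cre cells and 0 higher, with Idh3g at -1.32 ± 0.19 (edgeR adjusted p = 3.13e-05). Ppargc1a, which encodes the coactivator PGC-1 alpha, was 2.93 and 3.04 CPM in EE and 6.96 to 11.3 in Lgr5-GFP-Cre, a log2 difference of -1.71. It was higher than in Lgr5-GFP-Cre in Bmi1-GFP cells (1.55) and EP (2.32). Of the 77 mitochondrial ribosome genes, 30 were lower in EE and 0 higher. Of all genes tested, 20.4% were lower and 25.5% higher in EE than in Lgr5-GFP-Cre.

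Paneth cells against EE, both sorted on CD24, had 27 members lower (15.4% of all genes were lower) and 1 higher (14.0% of all), with a median of -0.58 against -0.03 for all genes. Lower were 13 of the 29 accessory subunits of complex I and 0 of the 7 core subunits, 4 of 13 in complex IV and 5 of 15 in ATP synthase. The higher member was Sdha, at 671 and 936 CPM in Paneth cells against 414 and 469 (log2 0.86 ± 0.22, edgeR adjusted p = 0.00776), and its call was lost without EE replicate 1 (adjusted p = 0.0824) or Paneth replicate 2 (0.0992). Ndufaf3 (-1.48), Atp5e (-1.41) and Ndufaf2 (-1.36) were lower. The call of Atp5e was lost without EE replicate 1 or Paneth replicate 1. Lower members numbered 2 without EE replicate 1, 3 without Paneth replicate 1 and 14 without Paneth replicate 2. Of the citric acid cycle genes, 8 of 13 were higher in Paneth cells and 0 lower. Ribosomal protein sums were 56940 and 39158 CPM in EE and 24343 and 21046 in Paneth cells, and their part in these values was not tested.

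**Figure D5:**
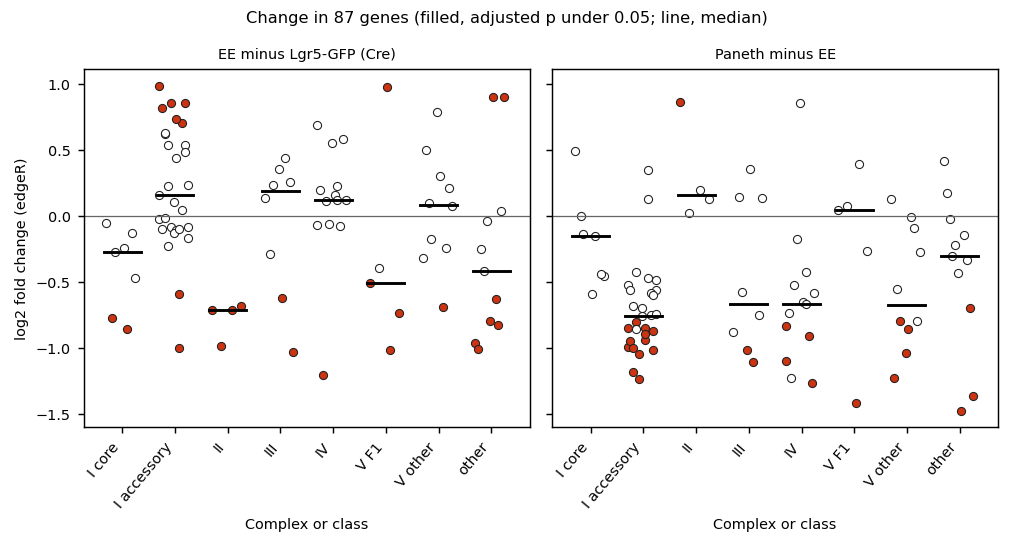
Fitted log2 fold change of the 87 genes in EE against Lgr5-GFP-Cre cells (left) and in Paneth cells against EE (right), by class. Filled points passed the edgeR test at an adjusted p under 0.05 and lines are class medians. On the left the 4 complex II genes are all filled below 0 with a median of -0.71, and on the right their median is 0.16.

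Paneth cells against Lgr5-GFP-Cre cells had 28 members lower (19.1% of all genes were lower) and 1 higher (21.6% of all), with a median of -0.55 against 0.01 for all genes. Atp5d, the delta subunit of F1, was 433 and 433 CPM in Paneth cells and 1067, 715 and 817 in stem cells. The ranges did not overlap, and the log2 difference was -1.0 ± 0.19 (SE, edgeR adjusted p = 0.000385). The assembly factors Ndufaf6 and Sdhaf1 differed by -1.22 and -1.16, and the accessory subunit Ndufa7 by -1.12. Cox7a1 was higher by 1.42 ± 0.40 (edgeR adjusted p = 0.00937), a call lost without Paneth replicate 2 (adjusted p = 0.332). The median was -0.19 without Lgr5-GFP-Cre replicate 1 and -0.80 without replicate 2. Lower members numbered 18 without Lgr5-GFP-Cre replicate 1, 68 without replicate 2 and 12 without Paneth replicate 1. Of the mitochondrial ribosome genes, 57 of 77 were lower and 0 higher.

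Bmi1-GFP against Lgr5-GFP-Cre cells had 24 members lower (22.5% of all genes were lower) and 1 higher (27.9% of all), a lower share near the background, with a median of -0.36 against 0.09 for all genes. Among the assembly factors and related genes 7 of 11 were lower. Sdhaf1, an assembly factor of complex II, was 28.0 ± 2.72 CPM (SD, n = 3) against 58.7 ± 17.2 (SD, n = 3), a log2 difference of -1.07 ± 0.20 (edgeR adjusted p = 0.000303). Atp5g2 (-0.98) and Ndufa7 (-1.10) were lower too. Ndufb11 (-0.81) and Ndufb4 (-0.80), both accessory subunits of complex I, lost their call without Lgr5-GFP-Cre replicate 1, and Ndufb4 also without Bmi1-GFP replicate 1 or 2. Cox7a1 was higher by 1.42 ± 0.37 (edgeR adjusted p = 0.00432), a call that held in every alternative run. The median was -0.05 without Lgr5-GFP-Cre replicate 1 and -0.65 without replicate 2. Lower members numbered 10 without Lgr5-GFP-Cre replicate 1, 65 without replicate 2, 11 without Bmi1-GFP replicate 1 and 12 without Bmi1-GFP replicate 2. Of the mitochondrial ribosome genes, 57 of 77 were lower and 0 higher. Bmi1-GFP libraries held 875 to 2144 CPM of 7 immune markers, and Lgr5-GFP-Cre libraries 24.5 to 41.8.

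The irradiated Bmi1-GFP library has no replicate, so it was set against the range of the 3 untreated libraries with no test. It lay above that range for 61 members (37.8% of 12991 genes with at least 1 CPM in either group) and below it for 11 (48.4% of them). By more than 1 log2 unit beyond the edge of that range, 3 members were higher (12.1% of these genes) and 2 lower (22.5% of them). The median difference was 0.43 for members and -0.17 for these 12991 genes. The summed member level was 41572 CPM with TMM, against 28069 to 34200 in the untreated libraries. As a share of all counts it was lower, at 2.96% against 3.38%, 3.42% and 3.86%, so its direction depends on scaling. Cox7a1 was 217 CPM against 29.1, 43.5 and 62.9, and Ndufa1, an accessory subunit of complex I, 322 against 115 to 139. Cox6b2 was 4.39 against 0.932 to 1.57. Lower were the assembly factors Ndufaf6, 9.29 CPM against 20.8 to 23.2, and Ndufaf7, 14.6 against 31.0 to 32.1. Assembly factors and related genes thus had a median of -0.69, while complex II had 0.63 and complex IV 0.65. Enterocyte markers summed to 111348 CPM in this library and to 6589 to 17866 in the untreated ones, and their part in the member values was not tested.

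EP and SP, named as progenitors of the absorptive and secretory lineages, were both unsorted crypts. They also differed in Cre, tamoxifen and DBZ, so these and lineage cannot be told apart. Between EP and SP after DBZ, 0 of 87 members were higher (0.573% of all genes were higher) and 0 lower (1.89% of all) by edgeR. DESeq2 also called 0, and 2 members had an unadjusted p under 0.05. These, named after their values were seen, were Atp5sl, at 54.9 ± 0.652 and 37.3 ± 8.11 CPM (SD, n = 2 each), and Ndufv1, at 461 ± 9.57 and 353 ± 38.0 CPM, and the smallest edgeR adjusted p was 0.161. Member log2 differences ran from -0.54 to 0.55, with a median SE of 0.28, and no difference of that size was called with 2 libraries a group. Around the chain, Slc25a4, an ADP/ATP carrier, was higher in EP by 1.33 ± 0.26 (edgeR adjusted p = 0.00490) and Ppargc1b by 0.75 ± 0.18 (edgeR adjusted p = 0.0250).

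Against Lgr5-GFP-Cre cells, EP had 3 members higher (22.2% of all genes were higher) and 13 lower (17.2% of all), with a median of -0.34 against 0.00 for all genes. SP after DBZ had 2 higher (21.0% of all) and 14 lower (15.7% of all), with a median of -0.44 against 0.03. The share of members called lower was under the background in EP and near it in SP. All comparisons with Lgr5-GFP-Cre cells share its 3 libraries. Progenitors were unsorted crypts and stem cells were sorted, so sorting and cell type cannot be told apart. Paneth markers summed to 55.6 to 125 CPM in EP and 4678 to 18592 in SP, against 40104 to 49352 in Lgr5-GFP-Cre. The 4 tuft markers summed to 552 to 1155 CPM in EP and 90.0 to 100.1 in SP, against 13.4 to 22.3 in stem cells. The 7 immune markers summed to 238 to 301 CPM in EP and 56.8 to 128 in SP, against 24.5 to 41.8. The part of these genes in the member values was not tested. Ndufs1, the largest core subunit of complex I, was 352 and 331 CPM in EP, 288 and 233 in SP and 144, 163 and 162 in stem cells. Both progenitor groups lay above the stem cell range, by 1.13 ± 0.20 (edgeR adjusted p = 0.000320) and 0.73 ± 0.20 log2 units (edgeR adjusted p = 0.00816), the second of these calls being lost without SP replicate 1 (adjusted p = 0.101). Uqcrc1 was 853 and 860 CPM in EP and 800 and 755 in SP, against 1835, 1438 and 1552 in stem cells. It was lower by -0.91 and -1.05 log2 units, and Ndufa7 by -1.30 and -1.44, and these calls held in every alternative run.

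Other calls in these comparisons were lost in some alternatives. In a model of only the groups compared, Ndufaf4, Sdha, Ndufa4, Ndufb11 and Ndufb2 lost their call in EP, and Ndufaf4, Ndufb11, Atp5g2 and Cox4i1 lost theirs in SP. Ndufaf4 was higher in EP (0.81) and SP (0.75), and its call was lost without Lgr5-GFP-Cre replicate 2 or any 1 progenitor library (edgeR adjusted p = 0.0538 to 0.0989). Sdha was higher in EP by 0.50 ± 0.20 (edgeR adjusted p = 0.0499), a call lost without any 1 EP library or without Lgr5-GFP-Cre replicate 1 or 3. It was also lost with DESeq2 size factors (edgeR adjusted p = 0.0830) and with no filter on low counts (edgeR adjusted p = 0.0681). Ndufa4 (-1.25), Ndufb11 (-0.99) and Ndufb2 (-0.90) were lower in EP and lost their call without Lgr5-GFP-Cre replicate 1 or EP replicate 1, and Ndufb2 also without EP replicate 2. In SP, Ndufb11 (-0.98) and Cox4i1 (-0.83) lost theirs without Lgr5-GFP-Cre replicate 1 or any 1 SP library, and Atp5g2 (-0.91) without SP replicate 2. The EP median was -0.02 without Lgr5-GFP-Cre replicate 1 and -0.61 without replicate 2, and the SP median -0.07 and -0.68. Lower members in EP numbered 4, 49 and 8 without Lgr5-GFP-Cre replicates 1, 2 and 3, and 3 and 8 without EP replicates 1 and 2. Lower members in SP numbered 8 and 55 without Lgr5-GFP-Cre replicates 1 and 2, and 7 and 3 without SP replicates 1 and 2. Of the 13 citric acid cycle genes, 7 were higher and 1 lower in EP, where 22.2% of all genes were higher and 17.2% lower. In SP 5 were higher and 1 lower, against 21.0% and 15.7% of all genes. Cs was at 894 ± 105 CPM in EP and 422 ± 24.1 in stem cells.

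After Rbpj deletion, another way to block Notch signalling, SP had 36 members lower than SP after DBZ (11.9% of all genes were lower) and 1 higher (12.9% of all), with a median of -0.75 against 0.01 for all genes. The library kit differs between these groups in the same way as the treatment, so kit and treatment cannot be told apart. Ndufs7, a core subunit of complex I, was 98.1 ± 17.2 and 254 ± 3.76 CPM (SD, n = 2 each), a log2 difference of -1.37 ± 0.24 (edgeR adjusted p = 0.000456). Ndufaf6 differed by -1.32 and Ndufc1 by -1.38, the latter losing its call without SP replicate 2 or either Rbpj library. Cox7a2l was higher by 1.12 ± 0.24 (edgeR adjusted p = 0.00192). Ribosomal protein sums were 52867 to 59010 CPM after Rbpj deletion and 24773 to 26458 after DBZ, opposite in direction to the members. Lower members numbered 16 without SP replicate 2, and 20 and 14 without Rbpj replicates 1 and 2.

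The 2 remaining comparisons showed few calls. CD274+CD69+ cells after diphtheria toxin against untreated ones had 0 members higher (0.0741% of all genes were higher) and 0 lower (0.101% of all) by edgeR, 0 by DESeq2, and 0 with an unadjusted p under 0.05. The member median was -0.03. Between the stem cell lines, Lgr5-GFP-DTR had 2 members higher (9.49% of all genes were higher) and 1 lower (11.1% of all) than Lgr5-GFP-Cre, with a median of 0.24 against -0.04 for all genes. These were the accessory subunits Ndufb7 (0.76) and Ndufa13 (0.70), and Uqcrc1 (-0.56). The first pair lost its calls without Lgr5-GFP-Cre replicate 2 or 3 or either DTR library, and Uqcrc1 without Lgr5-GFP-Cre replicate 1 or DTR replicate 2. Without Lgr5-GFP-Cre replicate 1, 38 members were higher and the median was 0.63, and without replicate 2, 0 were higher and the median was -0.03. Paneth markers summed to 164672 to 226516 CPM in the DTR libraries and 40104 to 49352 in the Lgr5-GFP-Cre libraries. Their part in the member values was not tested.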

How the data were processed

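Raw counts of reads by gene were deposited by the authors as 1 table of 25 RNA libraries and were used unchanged. The submitters' processing notes name TopHat2 2.0.6, Bowtie2, DESeq2 and the mm10 build. How reads were counted, with which annotation and whether by strand, is not given in the sources used here, so reads of near-identical paralogs, pseudogenes or overlapping genes may be misassigned (Atp5g1, Atp5g2 and Atp5g3, for example). The other 24 samples of the series were not analysed here.

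Members and gene lists were chosen with earlier results of these data known. Counts were fitted with edgeR 4.0.16 (R 4.3.3): TMM scaling, a filter on low counts (minimum count 10, minimum total 15), and the quasi-likelihood test in 1 model of 24 libraries in 11 groups. Adjusted p-values are Benjamini-Hochberg values over 14837 genes within a comparison, and a call is an adjusted p under 0.05. Log2 CPM values, used for group profiles and the irradiated library, have a prior count of 2, and fold changes are those of the fitted model. The irradiated library entered no test. No pair of replicates agreed within counting noise (smallest chi-square per degree of freedom 4.23). The fit was also run on counts simulated from its own dispersions, with changes put in for EP against SP after DBZ. That run checks the code and cannot show whether the model suits these libraries.

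Named members were, in each of 8 main comparisons, up to 5 called members per direction with the largest change, among those whose higher group averaged at least 20 CPM. In the other comparisons up to 3 were named. Added to these were the 2 most abundant subunits of each complex, all paralog sets, the 4 Sdh subunits, and up to 2 called genes of lowest adjusted p per list. A member that this rule names is not reported here. Any other gene was named after its values were seen. Alternatives were DESeq2 1.42.0 (size factors, and its test), no filter, a replicate block, only the groups compared, and each library left out. Figures were drawn with matplotlib 3.10.9.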

Additional observations from a re-analysis of the deposited data

How the results depend on the processing

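Of 60 calls of named members, 33 held in every alternative and 27 were lost in at least 1, of which 26 in a fit with 1 library left out. None changed direction. Where a left-out library leaves 1 in its group, that library is assumed to vary like the other groups. With library pairs of this size, calls of moderate change rest on each library. Member counts with 1 library left out, here and above, come without the share of all genes called in the same fit. They are therefore not set against a background.

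Counts of members called changed as follows where they moved by over 1.5 times. With only the groups compared in the model, lower calls were 3 in EP, 6 in SP, 13 in Bmi1-GFP, 13 in EE and 9 in Paneth cells, each against Lgr5-GFP-Cre, and 5 in Paneth against EE. Higher calls were 1 in SP and 0 in EE against Lgr5-GFP-Cre, 0 in Paneth against EE, and 5 in goblet against CD274+CD69+ cells. Lgr5-GFP-DTR against Lgr5-GFP-Cre then had 0 in each direction. By DESeq2's test, lower calls were 24 in EP and 22 in SP, higher calls were 2 in Paneth against Lgr5-GFP-Cre, 2 in Paneth against EE, 2 in goblet against Paneth and 3 in goblet against CD274+CD69+ cells. DTR stem cells had 4 higher and 5 lower by that test. With DESeq2's size factors, goblet against Paneth cells had 2 higher, and DTR stem cells 2 lower. With no filter, goblet against CD274+CD69+ cells had 1 higher and DTR stem cells 0 lower.

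With 1 library left out, higher calls were 1 to 2 in EP, 1 to 2 in SP, 0 to 26 in EE and 0 to 2 in Paneth cells against Lgr5-GFP-Cre. They were 0 to 1 in goblet against Paneth, 0 to 2 in goblet against CD274+CD69+ cells, 0 to 3 in Paneth against EE and 0 to 38 in DTR stem cells. Lower calls were 3 to 49 in EP, 3 to 55 in SP, 10 to 65 in Bmi1-GFP, 12 to 26 in EE and 12 to 68 in Paneth cells against Lgr5-GFP-Cre. They were 38 to 59 in goblet against Paneth, 43 to 49 in goblet against CD274+CD69+ cells, 2 to 22 in Paneth against EE, 14 to 30 after Rbpj deletion and 0 to 2 in DTR stem cells.

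The labels do not say that equal replicate numbers mark a pair. For Bmi1-GFP and Lgr5-GFP-Cre, correlations of same-numbered deviations were -0.07, 0.01 and 0.05. Over the other comparisons they ran from -0.19 (EP against Lgr5-GFP-Cre) to 0.32 (Paneth against EE), with 0.11 and 0.13 for EE against Lgr5-GFP-Cre. With the replicate number as a block, EP had 6 lower calls, goblet against CD274+CD69+ cells 1 higher, and DTR stem cells 1 higher and 0 lower. Other member counts stayed within 1.5 times under the replicate block. Named calls lost under it were Ndufb2 in EP against Lgr5-GFP-Cre (edgeR adjusted p = 0.0835), and Ndufa13 (0.0590) and Uqcrc1 (0.0580) in DTR against Cre stem cells.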
